A study of Rattus norvegicus with 6 samples.

Results

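Microglial and leukocyte miRNAs were examined in the small RNA of rat brain. The set holds 8 of the 775 miRNAs listed in the counts, taken by name, with earlier results of these data known. It was divided into groups by what is known of the miRNAs. The 3 grouped as NF-κB-induced were rno-miR-146a-5p, rno-miR-146b-5p and rno-miR-155-5p. The 5 grouped as leukocyte miRNAs were rno-miR-142-3p, rno-miR-142-5p, rno-miR-150-5p, rno-miR-342-3p and rno-miR-223-3p. These are group names: induction by NF-κB is described below for miR-146a and miR-155 only, and miR-342 is not confined to blood cells. All 8 passed the filter on low counts, as did 454 miRNAs in all. The question is how these miRNAs stood in the brains of 2VO rats that did or did not receive tilianin.

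The 6 libraries came from brains of male Sprague-Dawley rats, 7 weeks old when purchased, that had all undergone 2VO, the ligation of both common carotid arteries, which leaves the brain chronically short of blood. In the tilianin group (n = 3) the rats were given 40 mg/kg tilianin, a plant flavonoid glycoside, by gastric tube each day for 4 weeks. In the 2VO group (n = 3) they were given the vehicle alone, 0.5% CMC-Na at 5 mL/kg, over the same 4 weeks. The labels give the tissue as brain, whereas a figure legend of the study speaks of cortical tissue, so the region is uncertain. No sham library is part of this comparison, and the sources used here do not say whether each library is 1 rat, so the spread between libraries may be partly technical.

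Microglia are the resident macrophages of the brain. They share with blood leukocytes some miRNAs, such as those of the miR-142 hairpin, that neurons and other neural cells express little or not at all. This need not hold for every member, and which cells gave the counts of each member was not tested. When Toll-like receptors or cytokines activate NF-κB, the genes of miR-146a and miR-155 are transcribed, and miR-146a and miR-146b in turn repress the adaptors Irak1 and Traf6 of the same pathway, whereas miR-155 represses brakes on inflammation such as Socs1. The miR-142 hairpin is expressed throughout the blood lineage, miR-150 mainly in mature lymphocytes and miR-223 mainly in neutrophils and monocytes, while miR-342 is made from an intron of Evl and is not confined to blood cells. In RNA of whole tissue, a change in the number of such cells and a change in the RNA of each cell cannot be told apart.

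The mature sequences are shown because 2 of the members, miR-146a-5p and miR-146b-5p, can be told apart only at their 3′ ends, and because the miR-142 hairpin gives 2 members with unrelated seeds. They are RefSeq sequences of the GRCr8 assembly, which held 7 of the 8 members. Each is written 5′ to 3′, with the seed (bases 2 to 8, which pair with targets) in capitals.

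rno-miR-146a-5p: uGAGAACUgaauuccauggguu

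rno-miR-146b-5p: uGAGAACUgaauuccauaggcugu

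rno-miR-155-5p: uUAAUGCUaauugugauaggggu

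rno-miR-142-3p: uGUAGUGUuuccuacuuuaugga

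rno-miR-142-5p: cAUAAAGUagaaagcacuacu

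rno-miR-342-3p: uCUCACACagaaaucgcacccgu

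rno-miR-223-3p: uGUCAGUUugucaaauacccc

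miR-146a-5p and miR-146b-5p had the seed GAGAACU in common and were the only mature miRNAs of the RefSeq table with it. Counted from 1 at the 5′ end of miR-146a-5p, their first 17 bases were the same, and miR-146b-5p then differed by G18A and U21C and by 2 further bases at its 3′ end. The other 5 sequences each had a seed that no other mature miRNA of the table carried, and lay 7 to 10 single-base edits from their nearest neighbour. No other row of the counts was identical to that of a member. In the RefSeq annotation, the gene of miR-155 overlapped Mir155hg, that of miR-342 overlapped Evl, and that of miR-142 overlapped Tspoap1.

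The libraries held 7175872 to 13198776 counts in total, and 3 counts, the limit that a count of 0 allows, were worth 0.231 to 0.462 CPM (counts relative to the TMM-scaled library size). Such limits cover counting error only. Brain tissue was evident from miR-124-3p, the most neuron-specific miRNA, which ranked 3rd of the 454 miRNAs. Tilianin replicate 2 stood apart, with Spearman correlations to the other libraries of 0.936 to 0.957 across the tested miRNAs, and the log2 fold change of each member is therefore also given without it. In that library the summed level of 4 Hox-cluster miRNAs, which mark posterior body and hindbrain tissue, was 21658 CPM, against 89.8 to 489 CPM in the other 5, and the summed level of 5 neuronal miRNAs was 60716 CPM, against 93236 to 126788 CPM.

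The members fell into 2 ranges of abundance that did not follow the NF-κB and leukocyte division. As a count stands for a whole mature miRNA, CPM does not scale with length, although ligation during library construction can favour one sequence over another. Some rows outside the members had equal totals, such as let-7a-1-3p and let-7c-2-3p with 14022 counts each, so a read may count in several rows. The aligner and miRNA reference are not known here either, so levels of different miRNAs are compared only as counted. miR-146b-5p was the most abundant, with a mean of 7712 CPM over the 6 libraries and rank 19 of the 454 tested. miR-342-3p followed with 1613 CPM, miR-150-5p with 569 CPM and miR-142-5p with 460 CPM. The other 4 members were rare, with 9.25 CPM for miR-223-3p, 5.36 CPM for miR-142-3p, 3.41 CPM for miR-155-5p and 2.81 CPM for miR-146a-5p, the last at rank 336. miR-146b-5p was above miR-342-3p, and miR-342-3p above miR-150-5p, in 6 of 6 libraries without overlap of their ranges. miR-150-5p and miR-142-5p overlapped and changed order in tilianin replicate 2. The step from miR-142-5p to miR-223-3p was 29.0- to 79.0-fold within a library. Among the 4 rare members each range overlapped the next, and miR-155-5p was above miR-146a-5p in only 3 of 6 libraries.

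**Figure D1:**
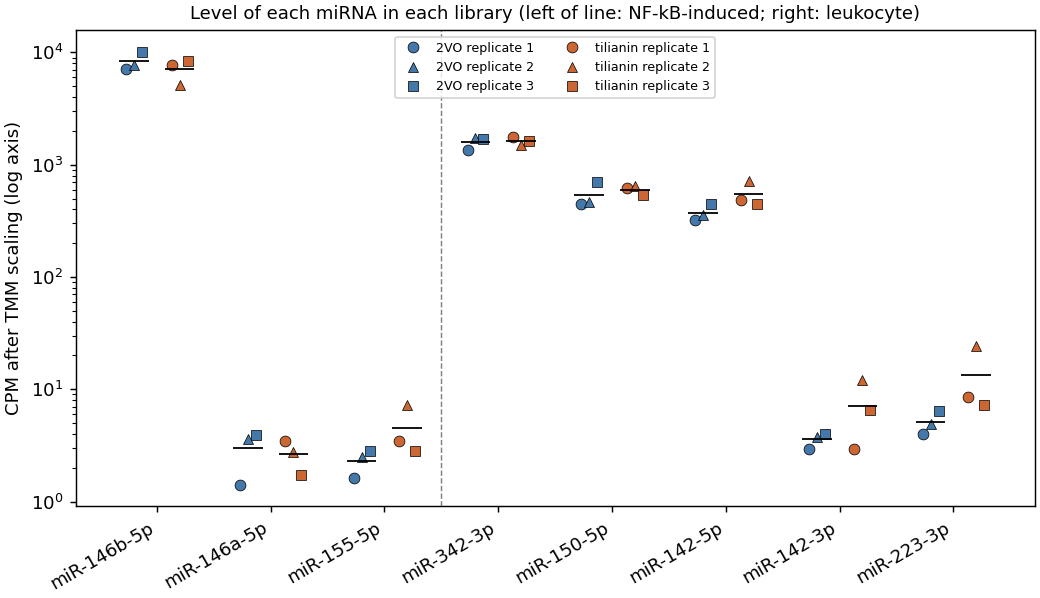
Level of each of the 8 miRNAs in each library, in CPM after TMM scaling on a log axis, with the NF-κB-induced miRNAs left of the dashed line and the leukocyte miRNAs right of it. Blue symbols are 2VO and orange symbols tilianin libraries, and black bars are group means (n = 3); the orange triangle, tilianin replicate 2, is the highest point for miR-155-5p, miR-142-3p, miR-142-5p and miR-223-3p and the lowest for miR-146b-5p.

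Of the 8 members, 1 was called higher in the tilianin group than in the 2VO group and 0 lower, at the study's screening criterion of an unadjusted p-value below 0.05 with an absolute log2 fold change above 1. Over all tested miRNAs, 4.63% were called higher and 1.1% lower by this criterion with edgeR's quasi-likelihood test. These shares count rows with near-equal or equal values separately, such as miR-133a-3p, miR-133c and a predicted miRNA, all called higher. The member called was miR-223-3p, a leukocyte miRNA, and its Benjamini-Hochberg adjusted p over all 454 miRNAs was 0.637 in edgeR's test. No tested miRNA had an adjusted p under 0.05 (edgeR), although 33 had an unadjusted p-value under 0.05, 1 of them a member. DESeq2's Wald test gave 3 with an adjusted p under 0.05, limma-voom 0 and the edgeR fit without tilianin replicate 2 gave 4, with 0 members among them in each fit. The log2 fold change was above 0 for 5 of 5 leukocyte members and for 1 of 3 NF-κB-induced members, against 46.7% of all tested miRNAs. The leukocyte members are not independent: miR-142-3p and miR-142-5p come from 1 hairpin, and all were measured in the same libraries. miR-342-3p was at only 0.03, and tilianin replicate 2 was the highest tilianin library for 4 of the 5. The median log2 fold change was 0.54 for the leukocyte members, -0.16 for the NF-κB-induced members and -0.03 for all tested miRNAs. Without tilianin replicate 2 these medians were 0.33, -0.02 and 0.01. With library totals in place of TMM, 4 of 5 leukocyte members were above 0, since miR-342-3p then lay at -0.03.

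Among the NF-κB-induced members, miR-146b-5p showed no difference that passed the test. Its level in 2VO replicates 1 to 3 was 7111, 7714 and 10115 CPM, and in tilianin replicates 1 to 3 it was 7712, 5177 and 8445 CPM. The groups overlapped, and the lowest library was tilianin replicate 2. A log2 fold change of -0.23 (edgeR adjusted p = 0.849) had a 95% interval of -0.81 to 0.36, and it was -0.02 without tilianin replicate 2. At 33617 counts or more per library, counting error was small beside the spread between libraries.

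miR-146a-5p, its seed partner, was measured on 13 to 47 counts per library. It was at 1.42, 3.63 and 3.88 CPM in the 2VO libraries and at 3.48, 2.77 and 1.71 CPM in the tilianin libraries. Low and high libraries occurred in both groups. On the log2 scale the groups differed by -0.16 (95% interval -1.28 to 0.95, edgeR adjusted p = 0.922), also -0.16 without tilianin replicate 2. The sign turned without 2VO replicate 2, 2VO replicate 3 or tilianin replicate 3, with values of 0.05 to 0.08.

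miR-155-5p, the miRNA of the macrophage response to Toll-like receptor ligands, was measured on 15 to 47 counts per library. It was at 1.63, 2.47 and 2.85 CPM in the 2VO libraries and at 3.48, 7.24 and 2.81 CPM in the tilianin libraries. Tilianin replicate 2 was highest, and its 95% Poisson interval for counting error, 5.32 to 9.63 CPM, lay above those of all other libraries, of which the highest reached 4.91 CPM. The lowest tilianin library lay just under the highest 2VO library. For this miRNA the log2 fold change was 0.95 (95% interval -0.10 to 2.00) with an unadjusted p-value of 0.0707 (adjusted p = 0.676), so that it did not pass the criterion. It was 0.46 without tilianin replicate 2, and 1.19 with an unadjusted p-value of 0.0365 without tilianin replicate 3, where it passed.

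Among the leukocyte members, miR-223-3p, which restrains the activation of neutrophils, was the miRNA called. The study had already reported miR-223-3p as raised by tilianin, so the call is not independent of that result. In 2VO replicates 1 to 3 it was at 4.03, 4.94 and 6.34 CPM, from 37, 64 and 49 counts. In tilianin replicates 1 to 3 it was at 8.47, 24.5 and 7.20 CPM, from 78, 159 and 59 counts. The group means were 5.10 ± 1.16 CPM (SD, n = 3) and 13.4 ± 9.63 CPM (SD, n = 3). All tilianin libraries were above all 2VO libraries, which held for 5.51% of all tested miRNAs, and 4.19% were separated in the other direction. The separation was narrow outside tilianin replicate 2, since the Poisson intervals of tilianin replicate 3 (5.48 to 9.29 CPM) and 2VO replicate 3 (4.69 to 8.38 CPM) overlapped. Its log2 fold change was 1.39 (95% interval 0.19 to 2.58) with an unadjusted p-value of 0.0288. Without tilianin replicate 2 it was 0.65, with an unadjusted p-value of 0.0460, and no longer reached the fold criterion (smallest adjusted p of any member 0.997 in that edgeR fit). The unadjusted p-value was 0.0906 without 2VO replicate 1, 0.0711 without 2VO replicate 2 and 0.0529 with limma-voom, so that the call was lost in these fits as well.

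Both arms of the miR-142 hairpin were members, and neither passed the criterion. miR-142-5p was at 319, 358 and 445 CPM in the 2VO libraries and at 484, 709 and 444 CPM in the tilianin libraries, from 2924 to 4640 counts. The groups touched, as tilianin replicate 3 lay at the level of 2VO replicate 3. With all libraries its log2 fold change was 0.54 (95% interval -0.06 to 1.15) with an unadjusted p-value of 0.0693 (adjusted p = 0.676), and it was 0.33 without tilianin replicate 2.

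miR-142-3p was at 2.94, 3.78 and 4.01 CPM in the 2VO libraries and at 2.93, 12.0 and 6.47 CPM in the tilianin libraries, on 27 to 78 counts. Tilianin replicate 1 was as low as the lowest 2VO library, while tilianin replicates 2 and 3 were above all of them. Here the log2 fold change was 0.98 (95% interval -0.19 to 2.16) with an unadjusted p-value of 0.0885 (adjusted p = 0.724). It was 0.40 without tilianin replicate 2, and 1.39 with an unadjusted p-value of 0.00939 without tilianin replicate 1, where it passed.

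Whether the groups touched depended on the scaling for miR-155-5p and miR-142-5p. With TMM only miR-223-3p of the 8 members was separated. With library totals 3 were, as miR-155-5p and miR-142-5p were then also higher in all tilianin libraries, against 5.29% of all tested miRNAs. With DESeq2's size factors 2 were, miR-223-3p and miR-142-5p, against 6.17%. The gaps behind these changes were small, with 463 CPM for the highest 2VO library and 470 CPM for the lowest tilianin library of miR-142-5p under library totals.

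miR-150-5p and miR-342-3p were the steadiest members. miR-150-5p, which represses Myb in lymphocytes, was at 447, 466 and 700.3 CPM in the 2VO libraries and at 619, 647 and 536 CPM in the tilianin libraries. Its tilianin libraries all lay within the range of the 2VO libraries, and the log2 fold change was 0.16 (95% interval -0.40 to 0.72), or 0.13 without tilianin replicate 2. miR-342-3p was at 1353, 1733 and 1701 CPM in the 2VO libraries and at 1764, 1500 and 1627 CPM in the tilianin libraries. Its highest library was only 1.30-fold above its lowest, the smallest such ratio of the 8 members, and the log2 fold change was 0.03 (95% interval -0.43 to 0.49), or 0.11 without tilianin replicate 2.

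**Figure D2:**
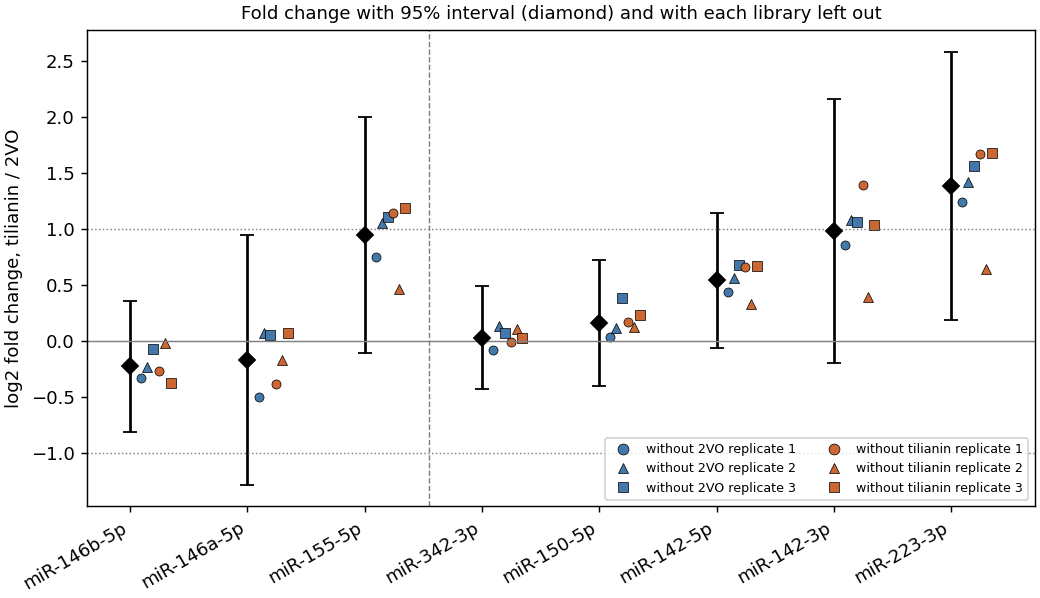
Log2 fold change of each miRNA, tilianin over 2VO, with all 6 libraries (black diamond, bar for the 95% interval) and with each library left out (coloured symbols). Dotted lines mark the fold criterion of 1 in either direction; the interval lies wholly above 0 for miR-223-3p (0.19 to 2.58) and crosses 0 for the other 7, and leaving out tilianin replicate 2 (orange triangle) moves miR-155-5p, miR-142-3p and miR-223-3p down to 0.46, 0.40 and 0.65.

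Tilianin replicate 2 was the highest of the 3 tilianin libraries for 5 of 8 members, and for 40.5% of all tested miRNAs. Relative to the mean of the other 5 libraries it was 3.95-fold for miR-223-3p, 2.98-fold for miR-142-3p, 2.73-fold for miR-155-5p and 1.73-fold for miR-142-5p. It was 1.17-fold for miR-150-5p, 0.982-fold for miR-146a-5p, 0.917-fold for miR-342-3p and 0.630-fold for miR-146b-5p. The order does not follow the NF-κB and leukocyte division, as miR-155-5p was far above the other libraries there and both miR-146 members were not.

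Some miRNAs of other cells were called as well, where 4.63% of all tested miRNAs were called higher and 1.1% lower. Of the red blood cell list, 1 of the 2 testable miRNAs was called higher, and the sum of its 4 miRNAs was 154.5 to 199 CPM in the 2VO libraries and 338 to 881 CPM in the tilianin libraries, highest in tilianin replicate 2. This sum was nearly all miR-486, the miRNA called, since miR-451-5p had 0 to 4 counts and miR-144-5p 0 to 1. The other testable one, miR-144-3p, had 2 to 23 counts per library, and its groups overlapped (log2 fold change 0.60, edgeR adjusted p = 0.896). The difference in the red blood cell list was therefore that of miR-486. Of the Hox-cluster list, 2 of 3 testable miRNAs were called higher, with 89.8 to 149 CPM in the 2VO libraries and 321 to 21658 CPM in the tilianin libraries, and miR-196b-5p at 0 in all. Of 5 miRNAs of the vessel wall and mesenchymal cells, 3 were testable and 1, miR-214-3p, was called higher, and the sum was 2.16 to 4.14 CPM against 4.89 to 7.69 CPM, with miR-199a-5p at 0 in all. The study had already reported the called Hox-cluster miRNAs, miR-10a-5p and miR-10b-5p, and miR-214-3p as raised by tilianin. The part of these cell lists in the level of miR-223-3p and of the other members was not tested. The endothelial and platelet pair miR-126a-3p and miR-126a-5p overlapped between the groups, with sums of 5372 to 8553 CPM and 6509 to 7203 CPM, and 0 of 2 were called. Of the oligodendrocyte miRNAs 0 of 2 testable and of the neuronal miRNAs 0 of 5 were called.

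**Figure D3:**
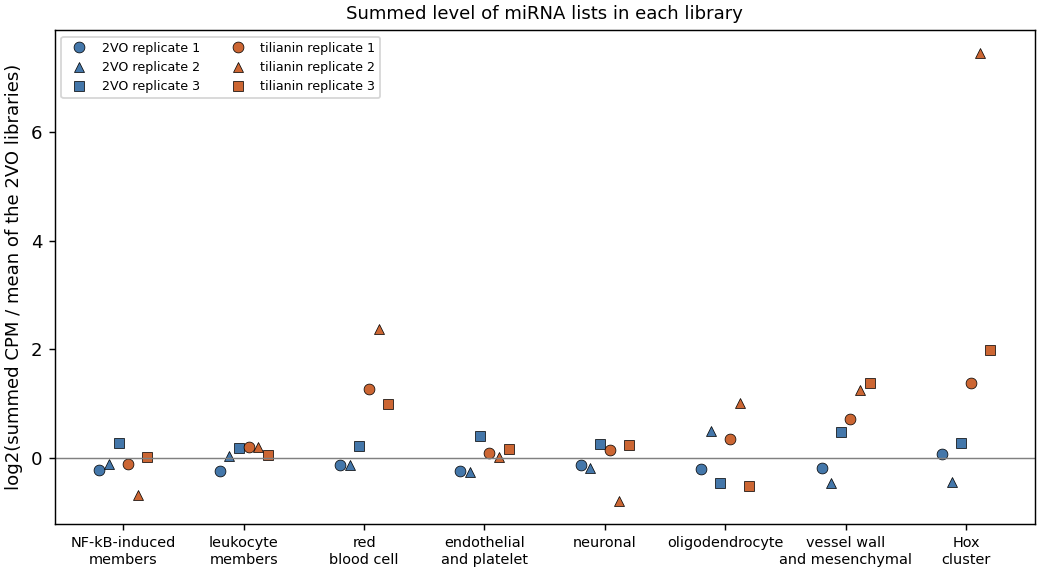
Summed CPM of each miRNA list in each library, as the log2 ratio to the mean of the 3 2VO libraries, with blue for 2VO and orange for tilianin. The NF-κB-induced sum, mostly miR-146b-5p, is lowest in tilianin replicate 2 (5187 CPM, with 2VO libraries at 7114 to 10122 CPM). The leukocyte sum, mostly miR-342-3p, overlaps between the groups. The Hox-cluster sum of tilianin replicate 2, 21658 CPM, is the farthest point. All 3 tilianin libraries are above the 2VO libraries for the vessel wall list and for the red blood cell list, which is nearly all miR-486.

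Other miRNAs known to respond to Toll-like receptor or NF-κB signalling did not pass the criterion. Of 9 such miRNAs 7 were testable, and 0 were called in either direction. Over all tested miRNAs 4.63% were called higher and 1.1% lower, so 0 of 7 is near that share. Of the 7, 2 had a log2 fold change above 0, and the median was -0.08. Without tilianin replicate 2, where 6 were testable, 4 were above 0 and the median was 0.05. miR-132-3p, which is induced by immune signals as well as by neuronal activity, had a log2 fold change of -0.39, with 85.2 CPM in tilianin replicate 2 and 395 to 699 CPM in the other 5 libraries. miR-125b-5p and miR-125a-5p, which target components of inflammatory signalling, were at -0.09 and -0.08, and let-7e-5p was at -0.06. miR-9a-5p, induced in monocytes and abundant in neural cells, was at -0.30. Above 0 were miR-99b-5p, from the same cluster as let-7e-5p and miR-125a-5p, and miR-21-5p, which is induced in activated macrophages. miR-99b-5p was at 0.28, with 56121 CPM in tilianin replicate 2 and 30014 to 37637 CPM in the other 5 libraries. miR-21-5p was at 1.78 (95% interval -0.63 to 4.19), from 8 counts in tilianin replicate 2 and 1 to 2 in each other library. miR-147 had 0 counts in all.

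The other arm of each hairpin gave a second reading of the same genes. Of 6 such arms 3 had enough counts to be tested, and 0 were called, against 4.63% higher and 1.1% lower over all tested miRNAs. miR-146b-3p was at 9.37, 14.0 and 15.1 CPM in the 2VO libraries and at 11.6, 7.70 and 15.5 CPM in the tilianin libraries, a log2 fold change of -0.14, and like miR-146b-5p it was lowest in tilianin replicate 2. miR-342-5p and miR-150-3p had log2 fold changes of 0.41 and 0.19. miR-146a-3p had 0 counts in all libraries, miR-155-3p had 0 to 1 and miR-223-5p 0 to 4, too few to compare.

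In each of the 7 hairpins 1 arm held nearly all counts. Over the 6 libraries the higher arm held 98.0% (miR-223, 3p arm) to 100% (miR-146a, 5p arm, with 0 counts for the other) of the counts of both arms. The median over 188 hairpin genes with both arms listed and at least 100 counts was 98.7%. Genes that give the same mature miRNA, such as Mir9-1, Mir9-2 and Mir9-3, each entered that median with the same counts. The 3p arm was the higher one for miR-342 and miR-223, and the 5p arm for the others. For miR-142 the 5p arm held 23703 counts and the 3p arm 265, between 59.0 and 165 counts of miR-142-5p for each count of miR-142-3p.

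**Figure D4:**
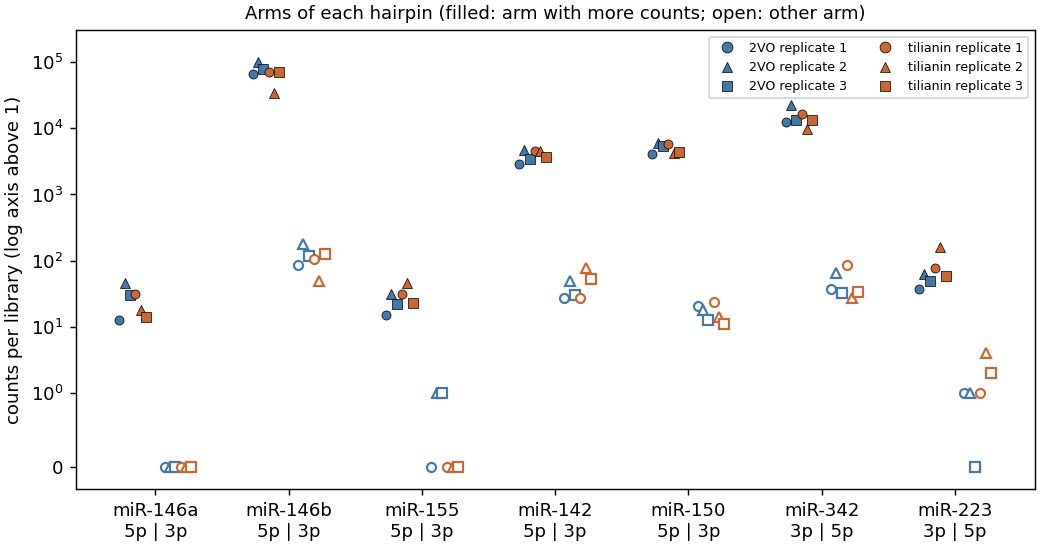
Counts of both arms of the 7 hairpins in each library, on an axis that is logarithmic above 1, with filled symbols for the arm with more counts and open symbols for the other (blue, 2VO; orange, tilianin). The 3p arm of miR-142 had 27 to 78 counts per library, against 2924 to 4640 for its 5p arm, and the 3p arm of miR-146a had 0 in all libraries.

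Ratios within a library, which need no scaling, did not separate the groups. Each was compared on the log2 scale with a two-sided exact permutation test, whose smallest p is 0.1 for 3 libraries against 3, so that no ratio could pass 0.05. The log2 ratio of miR-142-3p to miR-142-5p was -6.73, -6.55 and -6.77 in the 2VO libraries and -7.34, -5.87 and -6.09 in the tilianin libraries (exact permutation p = 0.6). The tilianin libraries lay on both sides of the 2VO libraries, with a spread of 0.79 (SD, n = 3) against 0.12 (SD, n = 3).

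The log2 ratio of miR-146a-5p to miR-146b-5p was -12.24, -11.04 and -11.32 in the 2VO libraries and -11.09, -10.83 and -12.22 in the tilianin libraries (exact permutation p = 0.7). This amounts to 1868 to 5020 counts of miR-146b-5p for each count of miR-146a-5p. Each group held a library near -12.2. The log2 ratio of miR-223-3p to miR-142-3p was 0.45, 0.38 and 0.65 in the 2VO libraries and 1.51, 1.02 and 0.15 in the tilianin libraries (exact permutation p = 0.4). miR-223-3p exceeded miR-142-3p in every library, most in tilianin replicate 1 and least in tilianin replicate 3. Adjusted over the 3 ratios by the Benjamini-Hochberg method, the smallest exact permutation p was 0.7. Without tilianin replicate 2 the differences in mean log2 ratio, tilianin minus 2VO, were -0.03, -0.12 and 0.34, against 0.25, 0.15 and 0.40 with it.

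**Figure D5:**
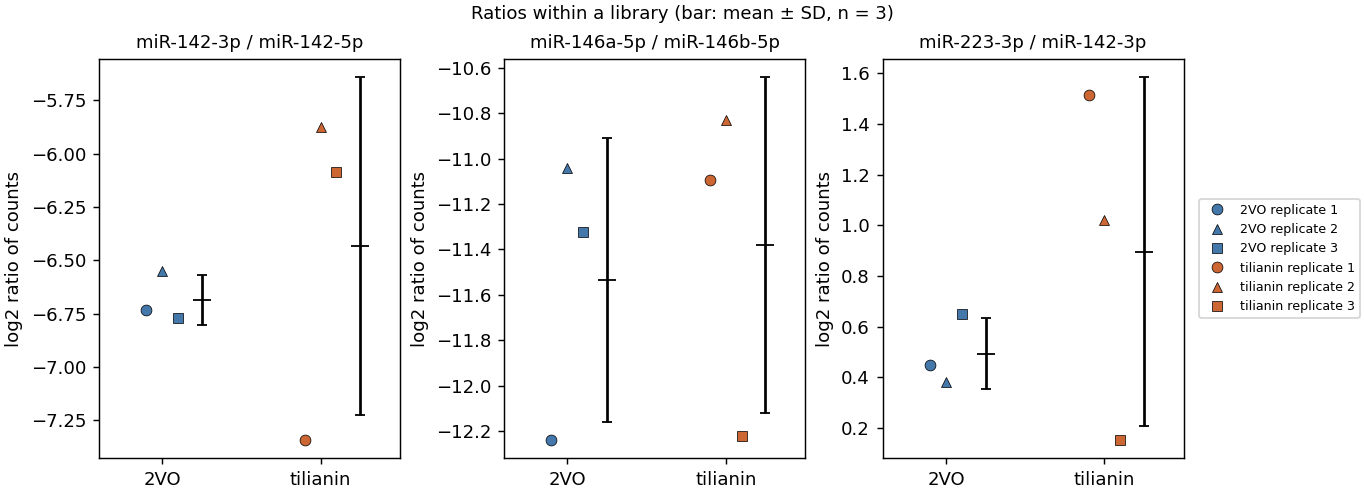
Log2 ratios of counts within each library for miR-142-3p to miR-142-5p, miR-146a-5p to miR-146b-5p and miR-223-3p to miR-142-3p, with the mean and SD of each group (n = 3) beside the points. The tilianin libraries reach above and below the 2VO libraries in the outer panels, and the groups overlap in all.

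The miRNAs whose pattern over the 6 libraries was nearest to that of miR-223-3p were miR-133a-3p, miR-133c and a predicted miRNA. These 3 had near-equal levels to one another, with 71.4 to 73.8 CPM in 2VO replicate 1 and 358 to 370 CPM in tilianin replicate 2. They are therefore not 3 separate likenesses. Likeness was the root mean square difference of log2(CPM + 1) values centred on their mean, over 378 miRNAs with at least 10 counts on average, and these 3 differed by 0.207 to 0.210. miR-133a-3p was at 71.7, 56.6 and 104 CPM in the 2VO libraries and at 123, 358 and 94.7 CPM in the tilianin libraries, so that tilianin replicate 2 was again far above the others. Unlike miR-223-3p, its groups overlapped.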

How the data were processed

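Small RNA of 6 rat brain libraries was analysed. The authors deposited raw counts per mature miRNA for each library, without normalization. The submitters' processing notes name FastQC 0.11.2, Trimmomatic 0.36, cutadapt 1.14 and DESeq2 1.12.4; the aligner, miRNA reference and genome build are not given in the sources used here. Columns were matched to samples by the library codes in the labels. miRNAs with at least 10 counts in total (454 of 775) were tested with edgeR's quasi-likelihood test after TMM scaling in R 4.3.3 with edgeR 4.0.16, fitting group alone and applying the study's criterion. DESeq2 1.42.0 and limma 3.58.1 served the alternatives. The 95% intervals rest on approximate standard errors taken from the F statistic. Ratios used counts plus 0.5. The code was tested on simulated counts.

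Alternatives were DESeq2's size factors, library totals, DESeq2's Wald test, limma-voom, no filter, filterByExpr, a block for replicate number, and omission of single libraries. The separation of groups under other scalings is an addition made with the data already seen. Named in the text are the members, the miRNAs of the lists, and the 3 miRNAs nearest in pattern to each called member. Members and lists were chosen with earlier results of these data known. Sequences and gene neighbours come from RefSeq (GRCr8), and no coordinates are given. The sequence of miR-150-5p is not shown.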

Additional observations from a re-analysis of the deposited data

How the results depend on the processing

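Over all tested miRNAs, 21 were called higher; limma-voom called 6, the replicate block 9, and single omissions of a library 7 to 29 (8, 7 and 9 without 2VO replicates 1, 2 and 3, and 9 without tilianin replicate 2). Called lower were 5; filterByExpr gave 2, limma-voom 3, the Wald test of DESeq2 3, library totals 8, and single omissions 2 (without 2VO replicate 2) to 5. Members called higher were 1, and 0 with limma-voom and 0 to 2 with each library left out: 0 without 2VO replicate 1, 2VO replicate 2 or tilianin replicate 2, and 2 without tilianin replicate 1 or 3. Members called lower were 0 throughout. The labels do not say whether equal replicate numbers mark paired samples. For libraries of equal number, deviations from the group means had correlations of -0.121, 0.00917 and 0.297. These were not set against libraries of unequal number, so they cannot decide whether samples were paired. The replicate block changed no call of a member.

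The log2 fold change changed sign for miR-342-3p with library totals (-0.0282) and over the fits without a library (-0.0759 to 0.139), and for miR-146a-5p over those fits (-0.497 to 0.0759). The group difference in log2 ratio changed sign for miR-142-3p to miR-142-5p (-0.0286 to 0.705 over those fits) and miR-146a-5p to miR-146b-5p (-0.199 to 0.573). Of 56 values of members under the other settings, 54 kept direction and call, as did 38 of 48 with a library left out. For all of these the cause was not tested. Of the members, 4 rest on 13 to 159 counts per library, where relative counting error is largest.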
